A study of Homo sapiens with 2 samples.

Results

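The subtelomeric ends of the human autosomes were examined by whole-genome bisulfite sequencing, which reads DNA methylation at each CpG dinucleotide as methylated and unmethylated calls. An end was taken as the last 2 Mb of covered sequence of a chromosome arm, counted inward from the first or last CpG listed and cut into 10 kb bins. The short arms of chromosomes 13, 14, 15, 21 and 22 were not among them, which left 39 ends. Of 7800 possible bins, 7540 held at least 20 CpGs that were read more than 5 times in both lines, against 263275 such bins on all autosomes. These bins contained 1535064 CpGs. Of the 260 bins not kept, 128 had fewer than 20 CpGs in the genome sequence and 132 had enough CpGs but too few that were read. The choice used position and coverage, not methylation.

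The samples were 2 established human acute myeloid leukemia (AML) cell lines. OCI-AML3 carried a DNMT3A mutation, on a single allele by the study's account, and AML5, which its sample record also calls OCI-AML5, was wild type for DNMT3A. Each line was represented by 1 library, so a difference between them cannot be told apart from any other difference between 2 lines, and no test of the genotype was possible. OCI-AML3 had 902802339 calls in all and AML5 894828667, or medians of 28 and 31 per autosomal CpG, and the cell type could not be checked against expression markers in methylation calls.

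Chromosome arms finish in tandem telomere repeats. Inward of these lie subtelomeres, which hold blocks copied between chromosomes, families such as WASH, DUX4 and olfactory receptor genes, and promoters of the telomeric transcript TERRA. Subtelomeric repeats are known to be strongly methylated in somatic cells and to lose methylation when the methyltransferase DNMT3B is defective. DNMT3A is a related enzyme that places methylation on unmethylated DNA, and the mutations of its catalytic domain found in AML are known to reduce its activity. Farther in, the autosomal ends are gene-rich and CpG-rich, with many CpG islands outside promoters.

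Some of the largest differences were sharp enough to be seen in 300 bases. The windows below are those with the largest difference among windows holding at least 10 CpGs, taken from 2 of the bins with the largest decreases and 4 of those with the largest increases. They are read 5′ to 3′ on the + strand of GRCh37 (hg19), with each CpG in capitals. The 17q window (chr17:79428210-79428509) lies in an exon of BAHCC1, which encodes a chromatin-associated protein. The 19p window (chr19:801400-801699) is in an intron of PTBP1, a splicing regulator. The 7q window (chr7:157475762-157476061) is in an intron of PTPRN2, which encodes a secretory granule protein, and the 16q window (chr16:88858433-88858732) is intergenic. The 9p window (chr9:973257-973556) is intergenic near DMRT3, and the 5p window (chr5:1885922-1886221) is in an intron of IRX4, both genes of transcription factors.
17q, BAHCC1: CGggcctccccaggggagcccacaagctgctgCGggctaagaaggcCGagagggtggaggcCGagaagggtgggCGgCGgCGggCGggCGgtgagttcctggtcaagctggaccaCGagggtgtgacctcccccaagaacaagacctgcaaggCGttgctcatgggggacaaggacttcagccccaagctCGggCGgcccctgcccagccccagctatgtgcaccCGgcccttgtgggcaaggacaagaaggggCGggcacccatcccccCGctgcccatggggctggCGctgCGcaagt
19p, PTBP1: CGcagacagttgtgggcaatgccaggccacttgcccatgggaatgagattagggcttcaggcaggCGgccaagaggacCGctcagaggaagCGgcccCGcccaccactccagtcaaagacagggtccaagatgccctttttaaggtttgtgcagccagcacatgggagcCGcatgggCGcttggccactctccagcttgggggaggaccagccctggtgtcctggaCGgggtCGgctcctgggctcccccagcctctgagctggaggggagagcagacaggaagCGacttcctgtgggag
7q, PTPRN2: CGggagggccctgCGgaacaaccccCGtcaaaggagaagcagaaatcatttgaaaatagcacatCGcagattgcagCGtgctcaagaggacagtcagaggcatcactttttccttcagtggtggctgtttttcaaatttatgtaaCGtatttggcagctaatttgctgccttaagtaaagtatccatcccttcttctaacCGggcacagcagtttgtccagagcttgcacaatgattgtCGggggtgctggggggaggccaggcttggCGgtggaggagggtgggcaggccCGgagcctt
16q, intergenic: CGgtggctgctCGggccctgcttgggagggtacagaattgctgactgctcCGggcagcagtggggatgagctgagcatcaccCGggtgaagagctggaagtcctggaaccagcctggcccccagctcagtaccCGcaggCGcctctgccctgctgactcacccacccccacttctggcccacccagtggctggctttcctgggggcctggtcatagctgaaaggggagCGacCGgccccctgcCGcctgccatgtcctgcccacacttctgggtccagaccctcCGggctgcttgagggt
9p, near DMRT3: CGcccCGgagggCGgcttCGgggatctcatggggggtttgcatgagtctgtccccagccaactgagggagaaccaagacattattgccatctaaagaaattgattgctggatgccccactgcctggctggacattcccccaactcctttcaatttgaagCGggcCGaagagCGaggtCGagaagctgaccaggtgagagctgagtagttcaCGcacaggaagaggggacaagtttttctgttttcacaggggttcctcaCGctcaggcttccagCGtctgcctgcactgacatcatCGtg
5p, IRX4: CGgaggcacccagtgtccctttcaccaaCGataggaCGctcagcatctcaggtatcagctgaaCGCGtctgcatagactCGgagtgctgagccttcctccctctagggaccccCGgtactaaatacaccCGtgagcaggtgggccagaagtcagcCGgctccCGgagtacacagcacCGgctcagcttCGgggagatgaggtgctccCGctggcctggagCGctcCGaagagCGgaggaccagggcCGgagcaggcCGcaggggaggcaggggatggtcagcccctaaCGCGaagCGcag

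In the BAHCC1 window OCI-AML3 had a mean of 0.103% over 18 CpGs and AML5 96.5%. Of 818 calls in OCI-AML3, 0.122% were methylated (95% Wilson interval 0.0216 to 0.689), and of 720 in AML5 96.7% were (95.1 to 97.7). The 10 CpGs of the PTBP1 window stood at 0.625% and 95.2%. The opposite pattern was as sharp. In the 16q window, 0 of 345 calls were methylated in AML5, which allows a share of up to 0.870% by 3 calls and has a Wilson upper limit of 1.10%, against 96.3% of 518 calls in OCI-AML3. The 9p window had 95.9% over 12 CpGs in OCI-AML3 and 6.99% in AML5, the 7q window 88.4% and 9.02%, and the IRX4 window 84.7% and 17.4%. These intervals cover counting error only. At the IRX4 window the depth of OCI-AML3 was 125 calls per CpG and that of AML5 31.1.

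The ends as a whole were methylated at close to the level of the other autosomal bins. The median bin level, the mean over the CpGs of a bin, was 71.5% in OCI-AML3 (interquartile range 54.0 to 85.7) and 80.3% in AML5 (65.6 to 90.8), against 71.7% and 80.7% in the rest of the autosomes. A bin of the ends was lower in OCI-AML3 by a median of 6.59 percentage points, a signed difference of -6.59 against -7.27 in the rest. This comparison takes no account of CpG number, which differed between the ends and the rest. The sign was negative in 6747 bins (89.5%), compared with 84.2% of the rest. The shares of all calls that were methylated in the ends were 68.36% (95% Wilson interval 68.35 to 68.37) and 76.52% (76.51 to 76.53). The levels of the 7540 bins in the 2 lines ran in parallel, with a Spearman rank correlation of 0.902, which is a description across bins that share each library, chromosome neighbours and CpG content.

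Large differences made up a smaller share of bins at the ends than over all autosomes. With 1 library per line, a bin was called where the lines differed by 20 percentage points or more. In the ends 671 bins (8.90%) were lower in OCI-AML3 by that much, where 16.4% of all autosomal bins were. A further 26 bins (0.345%) were higher in OCI-AML3, where 2.68% of all autosomal bins were. These shares take no account of CpG number. With the rest of the autosomes weighted to the CpG classes of the ends, 8.23% of its bins were lower and 1.35% higher. Below 50% methylation lay 20.04% of end bins in OCI-AML3 and 7.08% in AML5, against 25.3% and 8.78% in the rest. Bins above 80% in both lines numbered 2605 in the ends (34.5%), against 32.2% of the rest. Another 38 (0.504%) were above 80% in AML5 and below 50% in OCI-AML3, against 2.09% of the rest, and 1 showed the reverse, against 0.246%.

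Over all single CpGs together, the shares called in the ends were near those of all nuclear CpGs. Fisher's exact test on the calls, two-sided with Benjamini-Hochberg adjustment at 0.05 over all nuclear CpGs, compares the 2 libraries and not the genotypes. It called 227977 CpGs of the ends (14.9%) lower in OCI-AML3, where 14.7% of all nuclear CpGs were called lower. It called 57315 (3.73%) higher, against 3.86%. Within classes of local CpG number the ends and the rest stood further apart. With 10 to 19 CpGs within 250 bp on either side, 15.6% of CpGs were called lower in the ends and 12.8% in the rest. The mean differences there were -7.79 and -6.73. With 20 to 39, 13.98% and 11.6% were called lower, with -6.57 and -4.66. The ends had the larger share in every class below 40, while from 40 up they had 9.67% against 9.998%. Mean CpG levels in the ends were 68.7% and 75.8%. CpGs above 80% made up 59.9% in OCI-AML3 and 69.9% in AML5, and CpGs below 20% made up 18.4% and 12.9%. Depth moved with this comparison: the mean number of calls per CpG in the ends was 48.9 and 38.5, against 36.1 and 35.7 in the rest, and its part in the counts was not tested.

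The ends were much richer in CpGs than the rest, with a median of 197 CpGs listed per bin, read or not, against 78 and a GC content of 48.6% against 39.8%. A start of a protein-coding gene fell in 13.8% of the bins, compared with 6.02%. Bins were therefore compared within classes of CpG number, as drawn in the plot of level by CpG density. Where bins were poor in CpGs (20 to under 100), the ends were the less methylated: 59.0% in OCI-AML3 and 71.05% in AML5, against 69.0% and 78.03% in the rest. Of these 1448 bins, 24.3% were lower in OCI-AML3 by 20 points or more, against 21.8% in the rest. Where they held 300 to under 400 CpGs the order was the opposite, with 72.6% and 81.5% in the ends and 48.1% and 54.0% in the rest. At 400 CpGs or more the ends had 59.8% and 66.4%, the rest 42.1% and 45.1%.

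**Figure D1:**
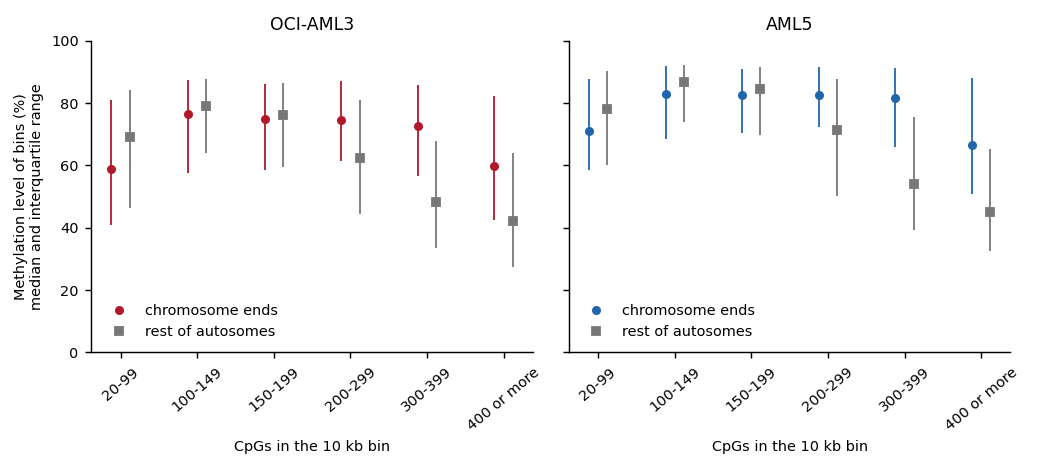
Methylation level (%) of 10 kb bins by the number of CpGs in the bin, read or not, for OCI-AML3 and AML5. Points are medians and lines interquartile ranges over bins. At 300 to under 400 CpGs the ends stand at 72.6% and 81.5% and the rest of the autosomes at 48.1% and 54.0%, while at 20 to under 100 CpGs the ends are the lower of the pair.

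When the rest of the autosomes was weighted to the CpG classes of the ends, 8.23% of its bins were lower and 1.35% higher in OCI-AML3, close to the 8.90% of the ends for decreases and above their 0.345% for increases. The mean of the class medians under that weighting was 70.4% and 78.9% in the ends and 64.6% and 72.1% in the rest. For the difference between the lines, the same mean was -7.06 in the ends and -5.92 in the rest. With this weighting the decrease was thus the larger at the ends, the opposite of the unweighted order. Dense CpGs were then split by their distance from a gene start. Among CpGs with 40 or more CpGs within 250 bp on either side, those within 1 kb of a protein-coding start had mean levels of 12.03% and 13.2% in the ends and 10.2% and 11.7% in the rest. Those farther from a start had 53.7% and 56.3% in the ends against 36.5% and 39.3%. In these 4 groups of dense CpGs the mean levels of the lines were within 2.77 points of each other.

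The neighbouring sequence between 2 and 4 Mb from the ends held 7734 bins by the same rule. Its median levels were 72.1% and 77.6%, its median difference was -6.68, and 8.37% of its bins were lower and 2.99% higher in OCI-AML3. The share of decreases was thus near that of the ends, and the share of increases was above theirs.

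Within the ends, the level varied by several points with distance from the tip, as the plot by distance shows. The 164 bins within 50 kb had medians of 71.9% and 82.0%, and the 1925 bins between 1500 and 2000 kb had 69.3% and 76.2%. From 250 to 500 kb the medians were 77.1% and 83.4%, and from 1000 to 1500 kb 68.6% and 78.5%. The median difference was -8.22 within 50 kb, -9.49 from 50 to 100 kb, -5.24 from 250 to 500 kb and -6.62 beyond 1500 kb. Called decreases were most frequent from 50 to 100 kb, with 27 of 163 bins (16.6%), and least from 1500 to 2000 kb, with 116 bins (6.03%). The Spearman rank correlation between the difference and the distance was -0.0107 across the 7540 bins, a description over neighbouring bins of the same libraries. Just inside the limit, at 1.9 to 2.0 Mb, 386 bins had 70.0% and 74.3%, and just outside it, at 2.0 to 2.1 Mb, 409 bins had 71.7% and 76.4%. Bins of the ends with 20 to 24 CpGs, 30 in number, had 45.2% and 68.8%, and the 20 bins with 15 to 19 CpGs that were left out had 66.3% and 81.6%.

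**Figure D2:**
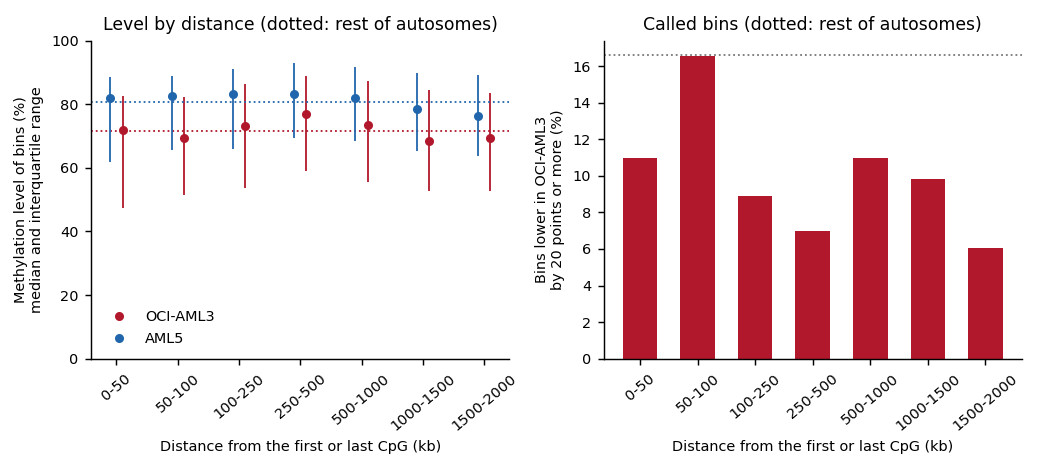
Left, methylation level (%) of bins by distance from the first or last CpG (kb), with medians as points, interquartile ranges as lines and the medians of the rest of the autosomes dotted. Right, the share of bins (%) lower in OCI-AML3 by 20 points or more, which runs from 6.03% at 1500 to 2000 kb to 16.6% at 50 to 100 kb, next to the 16.6% of the rest (dotted). The shares are not weighted for CpG number.

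The outermost kept bin of each end, which was the first bin in 31 of 39, was lower in OCI-AML3 at 37 ends. Of the 39, 5 (12.8%) were lower by 20 points or more and 0 were higher by that much, beside 16.4% and 2.68% of all autosomal bins. Over the 39 outermost bins OCI-AML3 had a median of 74.1% and AML5 84.4%. At 19p this bin was almost unmethylated in both lines, 4.39% and 9.40%, over 44 CpGs at 16.0 and 10.6 calls per CpG. The promoter window of the WASH5P copy, with 39 CpGs read, lies in it. At 1p, 4p and 4q the outermost bin stood at 90.6%, 90.4% and 90.3% in OCI-AML3 and at 94.4%, 89.9% and 90.6% in AML5. The largest outermost decreases were at 6q (42.7% against 73.6% over 33 CpGs, at depths of 51.7 and 18.4) and 5q (52.2% against 80.4% over 21 CpGs). Copies of the terminal families on different chromosomes are nearly identical, and reads placed in these bins are uncertain for that reason.

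Telomere-like sequence was searched as the unit TTAGGG repeated 2 times in a row, on both strands. It was present in 82 of the 7540 bins (1.09%), against 0.248% of all autosomal bins, and 27 of the 82 lay within 100 kb of the tip. Their medians were 72.4% and 81.6%, with a median difference of -6.91, and 2 (2.44%) were lower by 20 points or more. Bins of the ends without it had 71.5% and 80.3%, with a difference of -6.58 and 669 (8.97%) called lower.

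Single ends differed far more from each other than distance classes did. Medians of single ends spread between 39.3% and 87.5% (OCI-AML3) or 58.3% and 91.5% (AML5). In 38 of 39 ends the median difference was negative. It was largest at 3p (-19.1), where OCI-AML3 stood at 39.3% and AML5 at 58.3%, followed by 14q (-16.9), 2p (-16.8), 1q (-15.4) and 8p (-14.9). The bins of 3p were poor in CpGs, with a median of 64 per bin, and 90 of its 199 bins were lower by 20 points or more. At the other extreme were 17p (-4.18), 21q (-4.08), 6q (-3.49) and 3q (-3.39), and 4q, where the sign turned.

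Median levels at the long arm end of chromosome 4 were 75.6% (OCI-AML3) and 69.4% (AML5). The median difference was +4.72 points, and only 58 of its 199 bins were negative, while the rest of chromosome 4 had a median difference of -9.67. Of the 26 bins of the ends called higher in OCI-AML3, 6 were at 4q, and 1 of its bins was called lower. The depth at 4q was alike in the lines, with medians of 31.0 and 31.9 calls per CpG. The profile along 4q shows the AML5 line below that of OCI-AML3 over most of the inner part.

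Highest in OCI-AML3 were 3q (87.5%), 12p (84.9%), 17p (84.1%), 6q (82.8%) and 13q (81.8%), and lowest were 3p, 11q (46.4%), 14q (47.9%), 2p (49.2%) and 18p (54.4%). In AML5 the highest were 3q (91.5%), 12p (90.2%), 13q (89.7%), 17q (89.2%) and 17p (88.6%), and the lowest 3p (58.3%), 11q (59.98%), 2p (65.0%), 4q (69.4%) and 14q (70.1%). Neighbours in either order had overlapping interquartile ranges over bins, as the plot of the 39 ends shows. The 2 ends of a chromosome could differ: 3p and 3q were the lowest and highest ends in OCI-AML3. At 5p the median depth of OCI-AML3 was 94.3 calls per CpG and that of AML5 37.5, against 63.3 and 36.0 at 7q, and 71.7 and 55.6 at 8q. The part of such depth gaps in the levels of these ends was not tested.

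**Figure D3:**
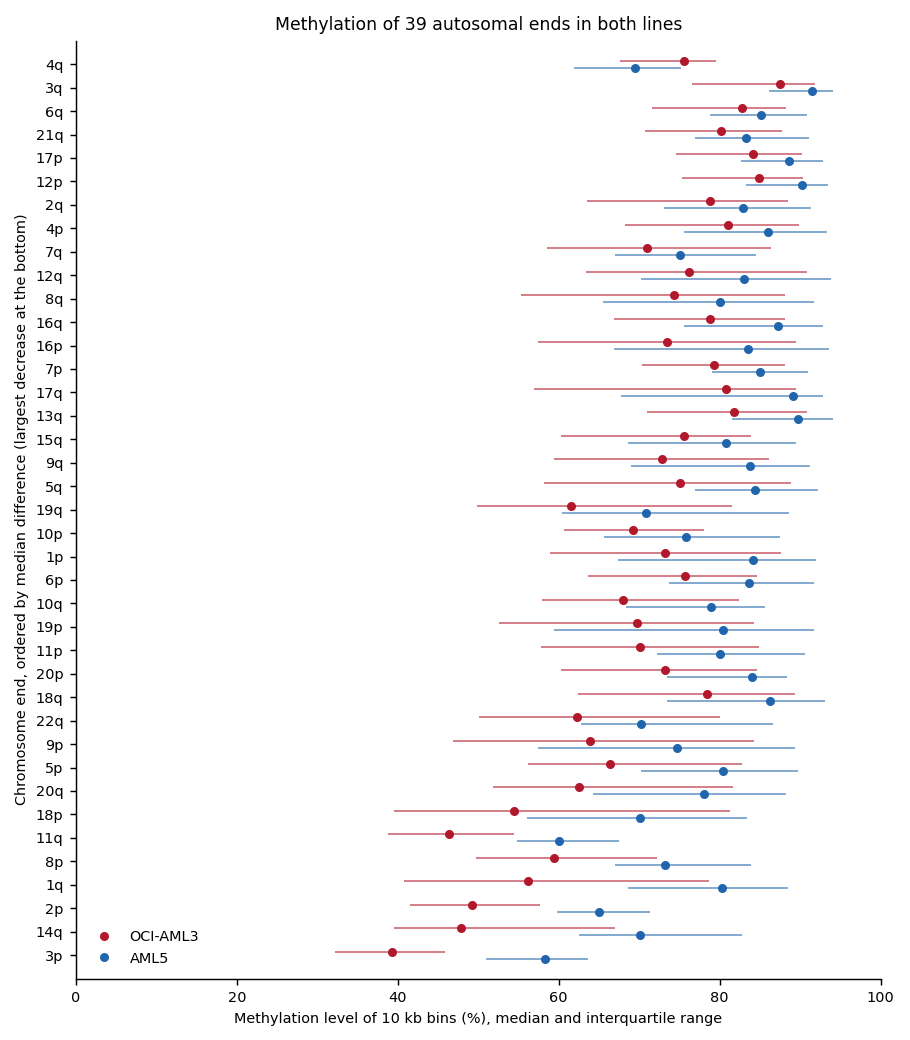
Median methylation level (%) and interquartile range over the 10 kb bins of each of the 39 autosomal ends in OCI-AML3 (red) and AML5 (blue), ordered by the median difference. At 38 ends the median difference is negative, from -3.39 at 3q to -19.1 at 3p, and 4q at the top is the exception at +4.72.

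A few ends held many of the decreases, and some of the decreases stood in long runs. The 5 ends with the most called decreases (3p, 14q, 1q, 2p and 18p) held 338 of the 671, and 249 of the 671 (37.1%) stood in 42 runs of 3 or more adjoining bins. Most decreases thus lay outside such runs, and runs were not counted in the rest of the autosomes. There was no such run of increases. The longest covered 220 kb of 14q (chr14:107029457-107249456), with 43.4% in OCI-AML3 and 75.2% in AML5. It was followed by 210 kb of 1q (chr1:247809888-248019887), with 41.8% and 80.3% and the olfactory receptor genes OR13G1, OR6F1, OR1C1 and OR11L1 among others. A run of 170 kb at 3p without a protein-coding gene had 32.7% and 59.3%. A run of 90 kb at 5p over NKD2 and SLC12A7 was milder in level, 66.2% and 90.5%, and 40 kb at 19p across AZU1, PRTN3, ELANE and CFD had 35.6% and 71.1%.

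The runs at 1q and 14q fell on a family of genes for odorant receptors and on the gene segments that B cells join to make antibodies. Both blocks were picked after their values were seen, and the values are a description. The olfactory receptor genes of 1q spanned 119 kept bins with medians of 47.8% in OCI-AML3 and 74.4% in AML5, and 73 of these bins were called lower. The other 62 bins of 1q had 81.8% and 88.2%, with 1 called lower. The segments of the immunoglobulin heavy chain locus at 14q spanned 122 bins with 43.3% and 66.9%, of which 75 were called lower, and the other 76 bins of 14q had 74.7% and 84.0%, with 2 called lower. The blocks were also poorer in CpGs than their surroundings, with medians of 72 against 131.5 CpGs per bin at 1q and 101 against 274 at 14q.

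**Figure D4:**
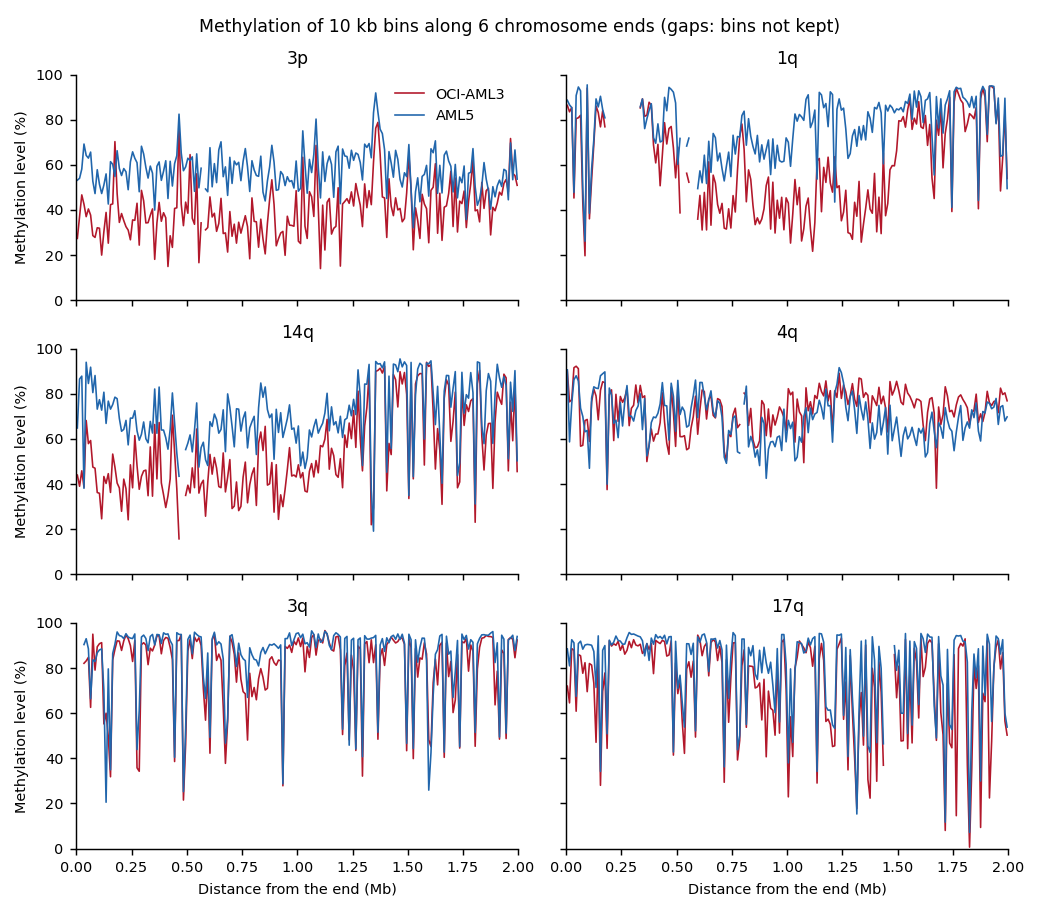
Methylation level (%) of each kept 10 kb bin against the distance from the chromosome end (Mb) for 6 ends, with OCI-AML3 in red and AML5 in blue. At 1q and 14q OCI-AML3 lies far below AML5 over the olfactory receptor and immunoglobulin segments and close to it elsewhere, at 3p it lies below almost throughout, and at 4q it lies above AML5 in the inner part.

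Bins overlapping a protein-coding gene were more methylated and differed less than bins without one. The 4759 genic bins had medians of 77.7% and 84.8% with a difference of -5.08, and 6.32% were called lower. For the 2781 bins without a protein-coding gene the medians were 65.1% and 74.4%, with a difference of -10.01 and 13.3% called lower. Some of these bins held non-coding genes or immunoglobulin segments. In the rest of the autosomes the same split gave -5.59 with 13.5% and -9.57 with 19.9%. The p ends had 10.7% of bins called lower and the q ends 7.52%.

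The largest single decreases, 6 bins by a rule of size, combined gene bodies, a non-coding gene and olfactory receptor sequence. The 17q bin at BAHCC1 (chr17:79424787-79434786) fell from 94.4% ± 8.96 (SD over 446 CpGs) in AML5 to 14.5% ± 28.8 in OCI-AML3, and 392 of its CpGs passed Fisher's exact test as lower. Another 17q bin, at LINC00482 (chr17:79274787-79284786), had 90.6% in AML5 and 22.4% in OCI-AML3. The PTBP1 bin at 19p (chr19:800119-810118) had 94.6% ± 6.12 and 33.3% ± 19.7 over 507 CpGs, lower at 498 of them. An intergenic bin at 6q (chr6:170325045-170335044) had 88.6% and 29.2% over 41 CpGs. The bins at OR2AK2 and OR2L5 on 1q had 79.0% and 81.3% in AML5 and 21.7% and 26.2% in OCI-AML3.

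The 6 largest increases were smaller. At PTPRN2 on 7q (chr7:157468489-157478488) OCI-AML3 had 83.3% ± 16.1 (SD over 347 CpGs) and AML5 43.3% ± 32.1. An intergenic bin at 3q (chr3:197822401-197832400) had 59.97% and 20.5%, but 184 of its 360 CpGs were read well enough, and its depth was 59.3 and 18.98 calls per CpG. With every call counted once its difference was 23.7 points instead of 39.5. The 16q bin (chr16:88854610-88864609) had 70.3% and 37.3%, and the IRX4 bin at 5p (chr5:1881823-1891822) 70.3% and 43.9%. The GALNT9 bin at 12q, a gene of mucin-type glycosylation, had 72.8% and 45.3% over 220 of 358 CpGs. The 9p bin at DMRT3 (chr9:970367-980366) was mixed: its mean was 60.8% in OCI-AML3 and 32.6% in AML5, with 243 CpGs higher and 80 lower by Fisher's exact test.

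Promoters were taken as 1 kb on either side of the start of each protein-coding gene, with at least 10 CpGs read. The start was the outermost annotated 5′ base of the gene. Transcripts that begin farther inside a gene have promoters that this window can miss. Of 1268 starts in the ends, 1232 had a value, and the medians were 14.9% in OCI-AML3 and 22.4% in AML5. In 571 of them (46.3%) both lines were below 20%. OCI-AML3 was lower by 20 points or more at 121 promoters (9.82%), where 9.30% of all autosomal promoters were, and higher at 36 (2.92%), where 2.46% were. Both shares were near the background. Outside the gene lists described next, the largest decrease was at RACK1 on 5q, which encodes a ribosome-associated scaffold protein, with 2.46% in OCI-AML3 and 76.1% in AML5 over 56 CpGs. It was followed by the olfactory receptor genes OR2T29 (13.6% and 77.5%), OR2L8 (28.1% and 89.3%) and OR2AK2 (33.9% and 93.9%), and by PPP1R27 on 17q (5.01% and 64.5%), a phosphatase inhibitor subunit. The OR2T29 value rested on 11 of 18 CpGs.

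The largest increases were at NAPRT on 8q, an enzyme of NAD synthesis from nicotinic acid, with 90.0% in OCI-AML3 and 15.4% in AML5 over 130 CpGs, and at ARHGEF10 on 8p with 83.0% and 8.57%. TRIM58 on 1q, an E3 ubiquitin ligase gene of the erythroid lineage, had 79.6% and 18.9%. PXDN on 2p, a peroxidase of the extracellular matrix, had 82.5% and 40.9%, and IRX4 had 75.8% and 42.9%.

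The sequence around promoters that were higher in OCI-AML3 was mostly lower there, as it was around nearly all promoters of the ends. The flanks, from 1 to 20 kb on either side of each start with the promoter itself left out, were measured after the promoter values had been seen. Flanks of the 36 higher promoters had a median of 64.7% (OCI-AML3) and 75.9% (AML5), the median flank difference was -8.93, and 33 of the 36 flanks (91.7%) were negative. Of all 1232 promoters, 1192 (96.8%) had a negative flank and the median was -6.45. At the 121 lower promoters the median flank difference was -9.53. TRIM58, inside the olfactory block, was the clearest case, with a promoter difference of +60.7 and flanks at 47.6% and 86.5%. NKD2 (+42.0) had flanks at 56.9% and 80.2%, ZNF606 (+53.0) at 52.9% and 79.1%, and ARHGEF10 (+74.4) at 72.1% and 90.4%. The 3 exceptions were PDYN on 20p, IRX4 and NKX6-2, with flanks of +17.4, +5.46 and +2.21.

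Among 33 myeloid and immune genes of the ends, 10 promoters were lower by 20 points or more and 0 were higher, against the 9.30% and 2.46% of all autosomal promoters. The list was drawn up with earlier results of these data known, so this count is a description. OCI-AML3 had a list median of 33.2% and AML5 69.7%, against 16.2% and 22.3% over all autosomal promoters. Both lines were below 20% at 6 of the 33 (18.2%), against 45.9%, and such promoters cannot differ by 20 points. More of the list than of the background could therefore be called. AZU1, a protein of neutrophil azurophil granules, had 3.31% ± 8.14 (SD over 76 CpGs) and 88.8% ± 12.6. SECTM1, a secreted immune ligand made by myeloid cells, had 11.3% and 82.7%, and LTC4S, the synthase of leukotriene C4, had 7.70% and 75.6%. ELANE, neutrophil elastase, had 7.73% and 69.7%. The others called lower were FUT7, PRTN3, CFD, ITGB2, TPSD1 and TNFRSF6B. The starts of AZU1, PRTN3, ELANE and CFD all lie in the 40 kb run of lower bins at 19p, so they do not stand for separate regions. Since ELANE, CFD, FUT7 and ITGB2 were among the genes the study picked from these same libraries, they are not independent evidence of a direction.

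**Figure D5:**
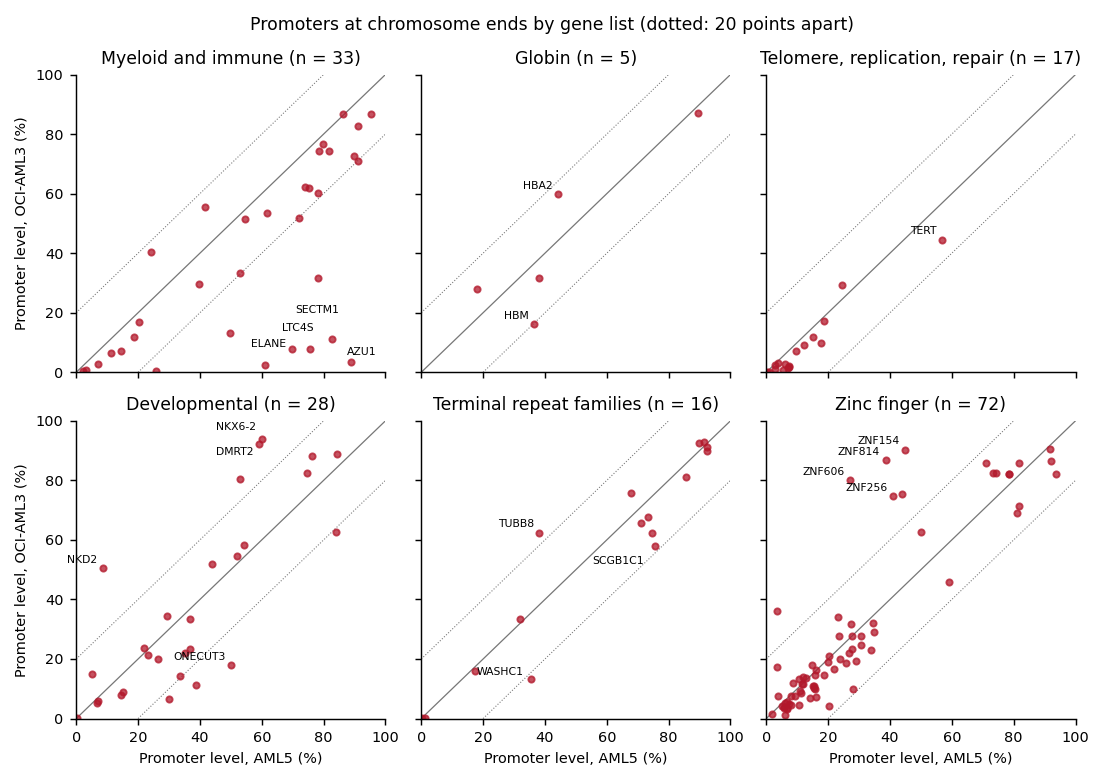
Promoter methylation level (%) in OCI-AML3 against AML5 for the members of 6 gene lists within 2 Mb of an autosomal end. Each point is 1 promoter, the solid line marks equal levels and the dotted lines 20 points. Of 33 myeloid and immune promoters 10 lie under the lower dotted line and 0 over the upper one, while 6 of 72 zinc finger promoters lie over the upper one and 0 under the lower.

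The zinc finger list had 72 promoters of 71 genes, among them 2 records of the pseudogene ZNF252P that are not protein-coding. Of these promoters 6 (8.33%) were higher in OCI-AML3 by 20 points or more and 0 lower, beside 2.46% and 9.30% of all autosomal promoters. ZNF606 (79.98% and 27.0%), ZNF814 (86.8% and 38.6%), ZNF154 (90.2% and 44.9%) and ZNF256 (74.8% and 41.1%) were at 19q and ZNF596 (36.0% and 3.40%) was at 8p, with ZNF329 at 19q the sixth. These genes encode mostly KRAB-type transcriptional repressors. In 34 of the 72 both lines were below 20%, and the list's median difference was -1.50, against -3.11 over all autosomal promoters. PEG3 and ZIM2, an imprinted pair, shared 1 promoter and its values, 82.1% and 78.4%.

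The 28 developmental genes had 4 promoters higher and 4 lower by 20 points or more, 14.3% each, beside 2.46% and 9.30% of all autosomal promoters. NKD2, an inhibitor of Wnt signalling, had 50.6% in OCI-AML3 and 8.55% in AML5, NKX6-2, a homeobox gene of the nervous system, 93.9% and 59.97%, and DMRT2 92.1% and 59.1%. UTF1, a gene of pluripotent cells, made the fourth, with 80.6% and 53.0%. ONECUT3, a homeobox gene, was lower with 17.9% and 50.2%, and the others called lower were UNCX, FOXC1 and VENTX. DMRT3, whose bin was among the largest increases, had a promoter that was lower by 19.2 points, at 14.3% and 33.5%. Depth at NKD2 was 81.05 and 32.7 calls per CpG.

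Genes of telomere maintenance, replication and DNA repair had mostly unmethylated promoters. Of 17 measured, 15 (88.2%) were below 20% in both lines, against 45.9% of all autosomal promoters. The medians were 2.82% and 7.38%, and 0 were called in either direction, beside a background of 9.30% lower and 2.46% higher. Promoters below 20% in both lines cannot differ by 20 points, so for those 15 this outcome was fixed by their level. TERT, the catalytic subunit of telomerase, differed most, with 44.5% ± 41.1 (SD over 207 CpGs) in OCI-AML3 and 56.8% ± 39.7 in AML5, at depths of 122 and 38.5 calls per CpG. TELO2 followed with 9.90% and 17.6%, the helicase gene RECQL4 with 1.65% and 7.38%, and TRIP13 with 1.38% and 7.04%.

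Gene families of the tips were methylated at some copies and unmethylated at others. Of 27 members located in the ends, 16 had enough CpGs read, with medians of 64.0% and 72.2%, 1 lower and 1 higher by 20 points or more (6.25% each, beside 9.30% and 2.46%). Both lines were below 20% at 3 of them, WASH7P at 1p (0.137% and 0.179%), WASH5P at 19p (0.285% and 1.26%) and FRG1 at 4q (15.8% and 17.5%). TUBB8 at 10p, a tubulin gene expressed in oocytes, had 62.4% in OCI-AML3 and 38.1% in AML5, and WASHC1 at 9p, of the WASH actin regulators, had 13.2% and 35.4%. SCGB1C1 had 58.1% and 75.5%, and OR4F6 had 62.1% and 74.7%. DUX4 at 4q, whose derepression causes facioscapulohumeral dystrophy, was highly methylated, 92.7% and 89.8%, from 52 of 193 CpGs. Values of DUX4, FRG2 and the WASH copies are uncertain because reads can be shared with near-identical copies elsewhere.

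The 5 globin genes at 16p had 1 promoter called lower (20%) and 0 higher, beside 9.30% and 2.46% of all autosomal promoters. The 1 was HBM, just past the threshold at -20.3 points, with 16.1% in OCI-AML3 and 36.4% in AML5 from 62 of 144 CpGs. HBZ was methylated in both, 87.0% and 89.5%, and HBA1 had 31.7% and 38.1%. HBA2 had 59.9% and 44.4% from 54 of 151 CpGs, and HBQ1 27.9% and 18.0%. HBA1 and HBA2 are near-identical, and reads between them cannot be placed with certainty.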

How the data were processed

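Genomic DNA of OCI-AML3 and AML5 was sequenced after bisulfite conversion, 1 library per line. The authors aligned the reads to hg19 with Bismark, Bowtie version 0.12.8 being named in the submitters' processing notes, and deposited for each CpG the counts of methylated and unmethylated calls with both strands combined. Removal of duplicate reads is not given in the sources used here. The columns were identified from mitochondrial DNA, of which 0.168% and 0.101% of calls were methylated. All 26752702 autosomal positions fell on a CG of the GRCh37 sequence. Depth was a median of 28 and 31 calls per autosomal CpG, at which 3 calls amount to a share of 10.7% and 9.68%.

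CpGs read more than 5 times in both lines were used. The level of a 10 kb bin was the mean of its CpG levels, and differences are OCI-AML3 minus AML5 in percentage points. Nothing was tested between lines beyond Fisher's exact test per CpG (Benjamini-Hochberg at 0.05), since neither line had a replicate. The binning and Fisher's test were tested on simulated data. Intervals are 95% Wilson intervals of shares of calls and cover counting error only. Genes came from GENCODE as lifted to GRCh37, and sequence from the same assembly. Sequence windows overlapping a UTR or on chromosome 8 were not considered. The 6 printed were picked as examples of both directions, and the others are not reported here.

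The members, gene lists and rules were chosen with earlier results of these data known. Named were the 5 ends with the highest and lowest level and the largest and smallest decrease, the 6 bins with the largest decrease and increase, the 4 members of each list with the largest difference, and the 5 largest decreases and increases among promoters outside the lists. Gene lists could hold non-coding records. Other list members past the threshold, the outermost bins of 6 ends, the blocks at 1q and 14q and the other runs were named after their values were seen. Alternatives were the read and CpG minimum, weighting by calls, grid, bin size, distance, a depth ceiling, the threshold, and leaving out chromosome 8. Python 3.11.15, numpy 2.4.6, scipy 1.17.1, pandas 2.3.3 and numba 0.67.0 were used.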

Additional observations from a re-analysis of the deposited data

How the results depend on the processing

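No paired analysis was possible because each line had 1 library. The median difference of -6.59 points became -7.02 with every call counted once, -6.17 within 1 Mb of the end and -6.31 with at least 50 CpGs per bin. The 671 bins lower and 26 bins higher in OCI-AML3 became 245 and 5 with bins of 20 kb, 366 and 9 within 1 Mb, and 2674 and 143 with a threshold of 10 points. Wider bins, a shorter distance and a lower threshold change these counts by construction. As shares, 6.44%, 9.91% and 35.5% of the bins were then lower, against 15.01%, 16.4% and 40.9% of all autosomal bins, and with at least 50 CpGs per bin 7.28% were, against 11.3%. These shares were not weighted for CpG number. Within 1 Mb, 102534 of 732414 CpGs were lower and 26102 higher by Fisher's exact test, beside 14.7% and 3.86% of all nuclear CpGs. None of the recomputed differences changed sign. These were the median over all ends and, under 3 alternatives each, the single ends and named bins. The counts of bins, CpGs and promoters were recomputed as well, but a count cannot change sign. The density classes, blocks, flanks and gene lists were not recomputed. Of 117 values of single ends recomputed after the data were seen, 5 moved beyond the set limit, and of 36 of the named bins 11 did. Depth per CpG limits single sites, and with 1 library per line the spread between cultures is unknown.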
